A study of Mus musculus with 20 samples.

Results

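The microRNA (miRNA) miR-10b is 1 of the 200 mouse miRNAs with a probe on the DNA chip used here. It was singled out because its signal was high in kidney, so its tissue levels are given below as a description, without a test. The chip had been hybridized with small RNA of 5 tissues (kidney, lung, heart, spleen and liver) from klotho(-/-) mice, which are deficient in the klotho gene and serve as a model of premature aging, and from wild-type littermates. All mice were male and 5 weeks old, and the strain is not given in the sources used here. Each of the 10 groups, 1 per tissue and genotype, held 2 arrays, numbered 1 and 2 after the 2 mice of a genotype, which gives 20 arrays. The study asked which miRNAs differ between the genotypes, and the value of miR-10b can be set against all other probes of the same arrays.

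The miRNAs are short RNAs that guide the silencing complex to messenger RNAs, and bases 2 to 8 from the 5′ end, the seed, do most of the target recognition. The gene of miR-10b lies in the HoxD cluster and that of miR-10a in the HoxB cluster, among the homeobox genes that set position along the body axis in the embryo. The kidney arises from intermediate mesoderm of the posterior trunk, in which Hox genes are active. The klotho protein itself is made mainly in kidney, where it acts as a co-receptor for the hormone FGF23. No probe of the chip measures the klotho messenger RNA, so the genotype of an array could not be checked from the data.

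The sequences of miR-10b and its relatives are shown because they tell which miRNAs could share targets with it. In RefSeq (GRCm38.p6) the hairpin gene Mir10b lies on the plus strand of chromosome 2 from 74726070 to 74726137, and its mature 5p strand spans 74726074 to 74726096. Both Hoxd3 (74711993 to 74748271) and Hoxd4 (74721978 to 74729160) are annotated across it. The hairpin is 68 bases long, and the mature 5p strand takes its bases 5 to 27. The seed is in capitals in each sequence.
miR-10b-5p: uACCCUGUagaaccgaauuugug
miR-10a-5p: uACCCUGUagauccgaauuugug
miR-99a-5p: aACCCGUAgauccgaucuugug
miR-99b-5p: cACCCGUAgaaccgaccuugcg
miR-125a-5p: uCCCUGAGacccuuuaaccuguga
miR-125b-5p: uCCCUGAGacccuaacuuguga
miR-196a-5p: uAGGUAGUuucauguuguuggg

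The strands of miR-10b and miR-10a have the same seed and differ by 1 of 23 bases, A12U, counted from 1 at the 5′ end of miR-10b. Of 1679 mature mouse miRNA names in the RefSeq table, these 2 alone held the seed ACCCUGU. The chip has no probe for miR-10a. By name, 147 of the 200 probes matched a RefSeq mature miRNA, and 0 of the matched probes other than miR-10b itself held that seed. The nearest matched sequences were those of miR-99a and miR-99b, at 5 edits each. The miR-99 and miR-125 members are relatives of miR-10 with other seeds, and miR-196a, from the HoxB and HoxC clusters, has an unrelated seed. The deposited tables give neither the probe sequence nor the strand, so cross-hybridization of miR-10a to the miR-10b probe was not tested.

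miR-10b was brightest in kidney in both genotypes. In the following, signal is the fluorescence intensity of the probe after an estimate of the array background was removed. The signal was 156.3 and 125.6 in klotho(-/-) kidneys, against 63.6 and 90.1 in wild-type kidneys. In lung it was 34.9 and 25.5 in klotho(-/-) mice, against 23.8 and 12.02 in wild-type mice. Thus all 4 kidney arrays lay above all 16 arrays of the other tissues, and in both tissues the genotypes did not overlap (before scaling this was seen, with klotho(-/-) above, for 79.1% of the probes tested in kidney and 33.6% of those in lung).

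In heart the signal was 9.36 and 7.28 in klotho(-/-) mice, against 6.47 and 8.23 in wild-type mice. In spleen it was 6.97 and 2.70 in klotho(-/-) mice, against 4.35 and 3.47 in wild-type mice. In liver it was 3.66 and 3.16 in klotho(-/-) mice, against 4.10 and 1.82 in wild-type mice. The genotypes overlapped in these 3 tissues, and all of these values were below a signal of 10, which is the minimum mean used here for a test. In liver the raw intensity of the probe was 0.969 to 1.06 times the array median. In heart it was 0.867 to 1.07 times and in spleen 0.739 to 1.07 times the array median. This is the level of the many dim probes, so the probe was near the floor in these 3 tissues.

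**Figure D1:**
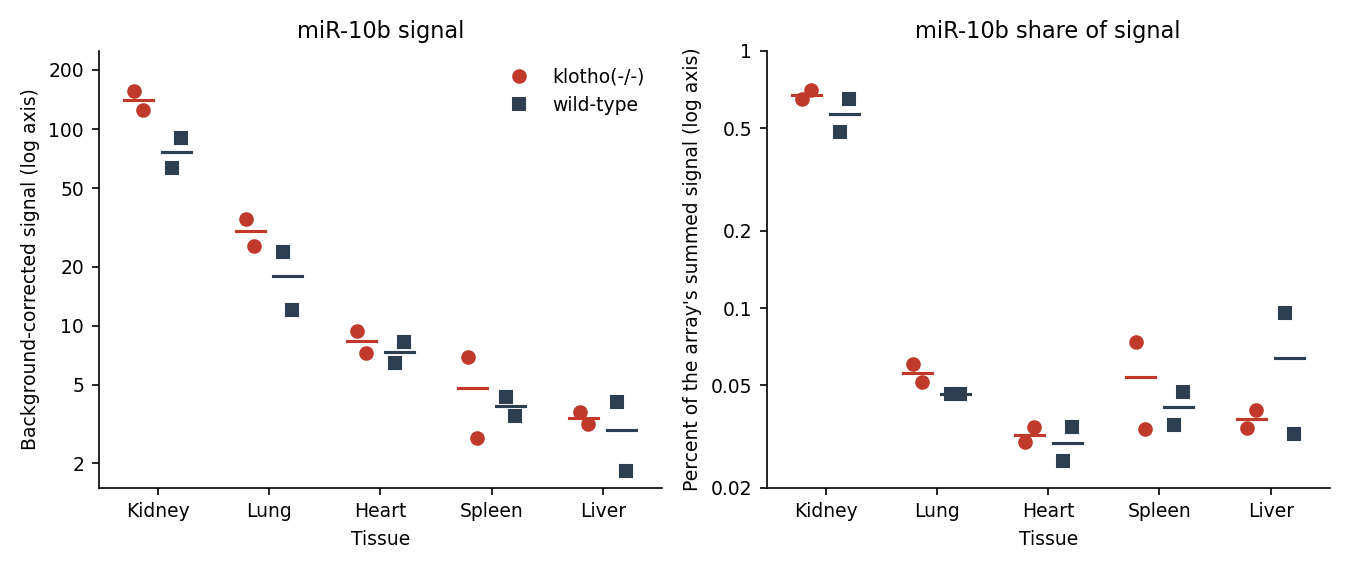
The left panel plots the background-corrected signal of miR-10b and the right panel its percent of the summed signal of all 200 probes, both on log axes, by tissue. Points are single arrays (circles, klotho(-/-); squares, wild-type) and bars are means of 2 arrays. All 4 kidney arrays (63.6 to 156.3) lie above all other arrays (at most 34.9), and by share of signal kidney stands at 0.485 to 0.702%.

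Therefore the order of the tissues by signal was kidney, lung, heart, spleen and liver. Lung and heart did not overlap, whereas heart and spleen overlapped and so did spleen and liver. The order below kidney depended on the scale. The summed signal of the 200 probes differed widely between arrays, at 4299 to 57562, with the lung arrays at 25911 to 57562. As a percent of the summed signal, miR-10b took 0.649 and 0.702% in klotho(-/-) kidneys, against 0.485 and 0.652% in wild-type kidneys. In lung the share was 0.0607 and 0.0513% in klotho(-/-) mice and 0.0462 and 0.0464% in wild-type mice. The highest share outside kidney was found in a wild-type liver, 0.0954%, whose array was the dimmest of all. Hence kidney stood apart by share as well, but lung, spleen and liver overlapped. Heart, at 0.0253 to 0.0345%, overlapped with spleen and liver.

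After quantile normalization over all 20 arrays, which gives every array the same set of values, miR-10b stood at 91.0 to 99.7 in kidney and at 1.85 to 20.6 on the other 16 arrays. The difference of kidney from the mean of the other 4 tissues was 1.34 on the log2 scale in klotho(-/-) mice and 1.29 in wild-type mice. These log2 values carry an added offset of 50, which shrinks differences of dim probes. The mean over both genotypes, 1.32, was the fourth highest among the 129 probes with a mean signal of at least 10 in some tissue. Above it were miR-200a (1.76), of the epithelial miR-200 family, and miR-30a-5p (1.53) and miR-30c (1.44), of the miR-30 family, which is abundant in kidney. The values next below, those of miR-200b (1.32) and miR-30d (1.31), were hardly apart from it, and without scaling its rank was again 4. Within a genotype its rank was 3 in klotho(-/-) mice and 8 in wild-type mice.

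The kidney arrays of miR-10b did not overlap with those of any other tissue. Only 3 of the 129 probes (2.33%) had all 4 kidney arrays above all 16 other arrays before scaling, namely miR-10b, miR-196a and miR-187. After normalization over the 20 arrays this was seen in 10 probes, the same 3 included. The lowest kidney signal of miR-10b, 63.6, stood against 34.9 as the highest elsewhere. For miR-196a these values were 18.5 and 3.93, and for miR-187 they were 22.9 and 17.1.

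**Figure D2:**
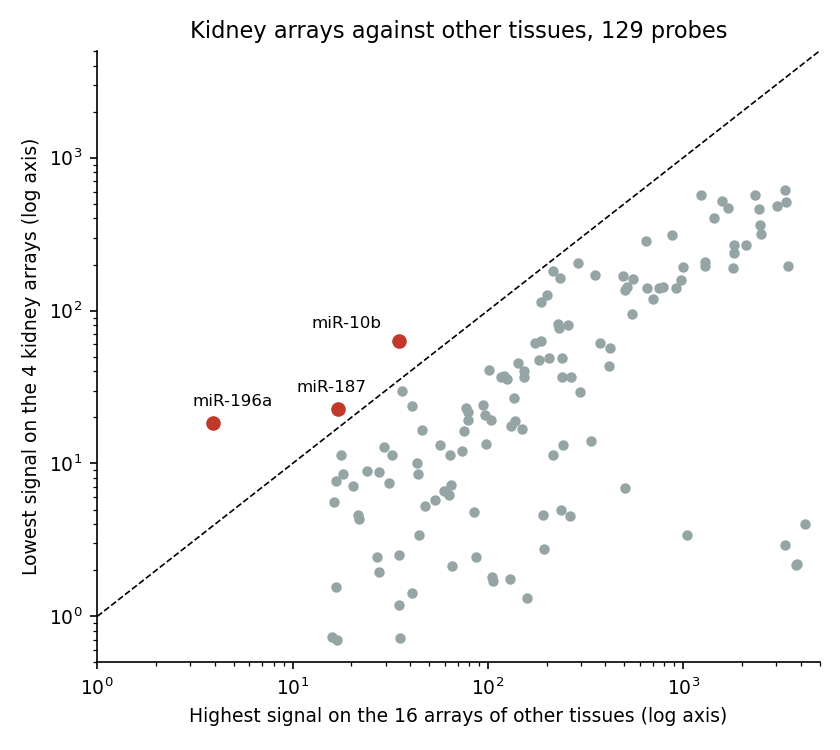
For each of 129 probes, the lowest signal on the 4 kidney arrays (vertical, log axis) is plotted against the highest signal on the 16 arrays of other tissues (horizontal, log axis). The dashed line marks equal values, and the 3 probes above it, in red, are miR-10b, miR-196a and miR-187.

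The pattern was the same within each mouse, with arrays of the same genotype and number taken as 1 mouse. Kidney over lung was 4.47 and 4.92 in klotho(-/-) mice, against 2.67 and 7.50 in wild-type mice. By share of the summed signal, kidney over lung was 10.7 and 13.7 in klotho(-/-) mice, against 10.5 and 14.1 in wild-type mice. Kidney was the highest and lung the second highest tissue by signal in 4 of 4 mice. Between the genotypes both ratios overlapped, with the widest gap between the 2 wild-type mice.

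The kidney label of the arrays was looked at through markers of other cell types. The hepatocyte marker miR-122a gave 4.04 to 5.47 on the kidney arrays and 1626 to 4196 on the liver arrays. Of the 8 epithelial markers listed, 7 were measured, and their summed signal was 750 to 852 in klotho(-/-) kidneys and 634 to 704 in wild-type kidneys. In lung the sum was 725 to 812 in klotho(-/-) mice and 398 to 791 in wild-type mice. Thus these markers did not set kidney apart from lung before scaling. The 4 markers of striated muscle summed to 12.1 to 15.4 in klotho(-/-) kidneys and 12.2 to 34.9 in wild-type kidneys, against 7584 to 11712 in heart. On the first wild-type kidney array miR-1, miR-133a and miR-133b stood at 10.2, 10.7 and 10.3, whereas each was at most 4.46 on the other kidney arrays. This array also had the lowest miR-10b signal in kidney, and the part of muscle RNA in that was not tested.

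The comparison between genotypes asked whether miR-10b differs in klotho(-/-) mice. Without any scaling both klotho(-/-) kidneys had more miR-10b signal than both wild-type kidneys, 140.9 ± 21.7 against 76.9 ± 18.8 (mean ± SD, n = 2 each), which is a ratio of 1.83. However, 72 of the 91 probes tested in kidney (79.1%), that is, those with a mean signal of at least 10 there, had both klotho(-/-) arrays above both wild-type arrays. The median ratio over the 91 probes was 1.49, and the ratio of the summed signals was 1.56. A higher ratio than that of miR-10b was seen for 14 of the 91 probes (15.4%). The ratio for arrays of the same number was 2.46 for the first pair and 1.39 for the second. In bulk tissue, a difference in the number of cells that make a miRNA and in its amount per cell cannot be told apart, and neither can a difference in labelling of the whole array.

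After quantile normalization between the 4 kidney arrays most of the difference was gone. The normalized signal of miR-10b was 112.1 and 112.1 in klotho(-/-) kidneys, against 92.5 and 112.1 in wild-type kidneys. The values were equal on 3 arrays because miR-10b was the 41st brightest of the 200 probes on each of them, and quantile normalization gives equal ranks equal values. On the first wild-type array it was the 43rd. In normalized signal the genotypes did not overlap, with klotho(-/-) above, for 17.6% of the 91 probes, and miR-10b was not one of these. The log2 difference of klotho(-/-) minus wild-type was 0.09 ± 0.08 (SE; 95% interval -0.08 to 0.26, limma adjusted p = 0.762). In this comparison 7 of the 91 probes (7.69%) passed an adjusted p of 0.05, 3 higher and 4 lower in klotho(-/-) kidneys, and miR-10b was not among them. The interval spans a fold of 0.948 to 1.20 on the scale with the offset. The difference was 0 without the first wild-type kidney array and 0.18 without the second, so it rests on 1 array.

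In lung the normalized signal was 29.5 and 22.9 in klotho(-/-) mice, against 23.7 and 16.4 in wild-type mice, and the genotypes overlapped, while 22.1% of the 113 probes tested in lung had both klotho(-/-) arrays above. The log2 difference was 0.12 ± 0.08 (95% interval -0.05 to 0.29, limma adjusted p = 0.571). Of the 113 probes, 9 (7.96%) passed the threshold. In liver, heart and spleen miR-10b was too dim for the test, and its log2 differences of -0.0042, -0.07 and 0.02 are given as values only. Over the 5 tissues the mean difference was 0.03 ± 0.04 (limma adjusted p = 0.659 over all 200 probes, of which 9% were called). An exact two-sided permutation test of this mean, with the genotypes exchanged within tissues in all 7776 arrangements, gave p = 0.387. Without scaling the mean was 0.18 ± 0.06 (limma adjusted p = 0.173), and the same exact permutation test gave p = 0.0147. For the normalized mean, the permutation test with whole mice exchanged has 6 arrangements, and the smallest p they allow, 0.333, was found.

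The genotype difference in kidney was also set against that in the other tissues. Kidney minus the mean of the other 4 was 0.08 ± 0.09 on the log2 scale (limma adjusted p = 0.829), and 3.3% of the 91 probes passed this test. The sign turned to -0.02 without the first wild-type kidney array. An F test that the 5 differences are equal gave an adjusted p of 0.777 in limma, with 7% of the 200 probes called. Without scaling, kidney minus the other tissues was 0.52 ± 0.14 (95% interval 0.21 to 0.82), which did not pass either (limma adjusted p = 0.176).

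The call in kidney changed with the scaling. Without scaling the log2 difference was 0.59 ± 0.13 (95% interval 0.32 to 0.87, limma adjusted p = 0.0318), and miR-10b was the only one of the 91 probes to pass (1.1%). The median log2 difference of the 91 probes was then 0.30. Other probes had a larger unscaled difference with a larger SE, such as miR-125a (0.63) and miR-125b (0.64). The 2 arrays of a genotype differed on this scale by 0.23 in klotho(-/-) kidneys and 0.30 in wild-type kidneys, and by 0.01 to 0.11 in the 3 tissues where miR-10b was near the floor, over which the SE is pooled. With each tissue fitted alone, without that pooling, the unscaled difference had an SE of 0.18 and was called as well (limma adjusted p = 0.00971), and so it was with an offset of 200 (0.30, limma adjusted p = 0.00478). How many of the other probes passed in these fits was not counted. In unscaled signal, 79.1% of the 91 probes had both klotho(-/-) kidneys above both wild-type kidneys. With the replicate number as a block, which pairs the genotypes, the unscaled difference of miR-10b was not called (limma adjusted p = 0.0844). The 2 klotho(-/-) spleen arrays correlated less with each other (r = 0.78 over 96 probes) than the arrays of any other group (0.94 to 0.99), and without the spleen arrays the unscaled difference in kidney was not called (limma adjusted p = 0.0749). The unscaled call was lost in 14 of the 20 fits with 1 array left out. The difference was 0.48 (limma adjusted p = 0.308) without the first klotho(-/-) kidney and 0.44 (limma adjusted p = 0.424) without the first wild-type kidney, and it was 0.71 and 0.74 without the second ones. With scaling to the median or to the total signal within the tissue the difference was 0.16 (limma adjusted p = 0.264) and 0.17 (limma adjusted p = 0.263). In lung miR-10b was called neither with any of these scalings nor without scaling, where the difference was 0.24 ± 0.13 (limma adjusted p = 0.229, with 1.77% of the 113 probes called).

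**Figure D3:**
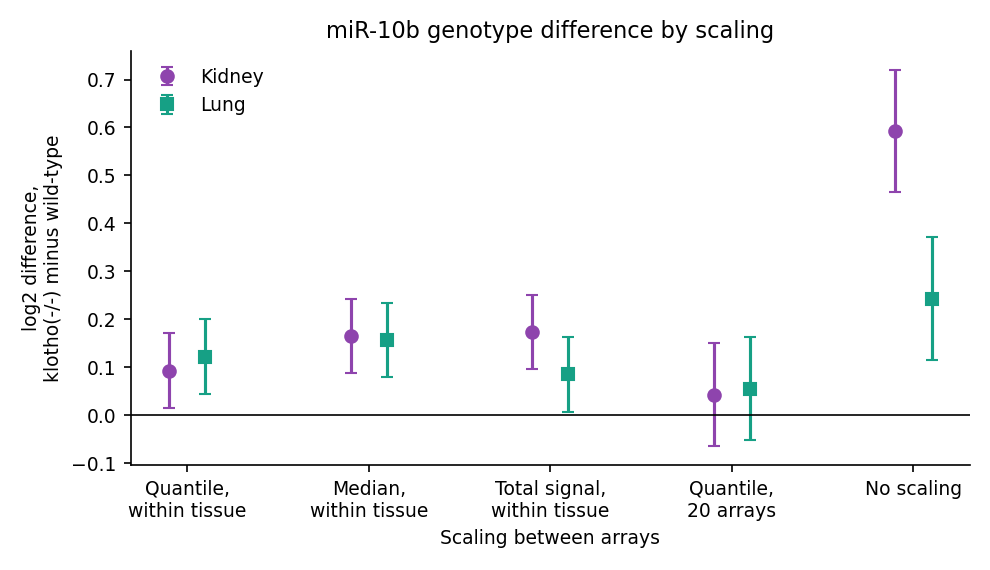
The log2 difference of miR-10b, klotho(-/-) minus wild-type, is plotted for kidney (circles) and lung (squares) under 5 ways of scaling the arrays, with bars of 1 SE from the limma model. In kidney it is between 0.04 and 0.17 under the 4 scalings and 0.59 without scaling.

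Some lists of cell type markers differed in normalized signal between the kidney groups, where miR-10b itself overlapped and was not called. The 2 smooth muscle markers did not, with sums of 626 to 637 in both genotypes. The 7 measured epithelial markers summed to 661 to 720 in klotho(-/-) kidneys and 859 to 863 in wild-type kidneys, and of the 6 tested, 2 passed the threshold, both lower. These were miR-194 (log2 difference -0.76, limma adjusted p = 0.0477) and miR-192 (-0.27, limma adjusted p = 0.0134), an epithelial pair that is made from shared precursors. Of the 6 tested, 2 had a difference above 0, miR-200b (0.05) and miR-200c (0.16), and neither was called. The 2 measured fibroblast markers, miR-199a and miR-199a*, summed to 118.3 on both klotho(-/-) arrays and to 94.2 and 103.0 on the wild-type arrays, and neither passed. The 2 endothelial markers summed to 244 to 260 in klotho(-/-) kidneys and 264 to 270 in wild-type kidneys, and the 1 tested was not called. Lower sums in klotho(-/-) kidneys were also seen for the 3 measured leukocyte markers (18.0 to 18.6 against 19.9 to 24.3) and for miR-122a (3.46 to 4.80 against 4.85 to 5.06). These were too dim for a test. The striated muscle markers and miR-144 overlapped. The part of the cell mix in the miR-10b values was not tested. From the list of 14 kidney miRNAs, 12 were measured and 11 tested in kidney. Their median log2 difference was -0.13, against 0.02 over all 91 probes, with 0 called higher and 2 lower, again miR-192 and miR-194, where 3.3% of the 91 probes were called higher and 4.4% lower.

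Of the 5 Hox-cluster miRNAs listed (miR-10a, miR-10b, miR-196a, miR-196b and miR-615), miR-10b and miR-196a were on the chip. miR-196a, which targets Hox messenger RNAs, gave a signal of 29.3 and 22.7 in klotho(-/-) kidneys, against 18.5 and 19.9 in wild-type kidneys, and at most 3.93 elsewhere. Thus its mean signal reached the minimum for a test in kidney only, where its normalized log2 difference was 0.02 ± 0.03 (limma adjusted p = 0.837). As with miR-10b, the unscaled groups did not overlap, as for 79.1% of the 91 probes.

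Of the 7 members of the family of miR-10, miR-99, miR-100 and miR-125, 5 were on the chip, and 0 of them passed the test in any tissue. The number tested was 5 in kidney, 5 in lung, 4 in heart, 3 in spleen and 2 in liver, and the share of all tested probes that passed was 7.69%, 7.96%, 5%, 30.2% and 4.92% in these tissues. In kidney the median log2 difference of the 5 was 0.09, against 0.02 over all 91 probes. For miR-125b, the signal was 212.0 and 152.2 in klotho(-/-) kidneys, against 101.0 and 94.8 in wild-type kidneys, and the normalized log2 difference was 0.19 ± 0.14 (limma adjusted p = 0.742). miR-125a gave 161.1 and 105.2 in klotho(-/-) kidneys, against 73.6 and 61.2 in wild-type kidneys, and its difference was 0.17 ± 0.18 (limma adjusted p = 0.766). All 5 were brighter in both klotho(-/-) kidneys before scaling, as were 79.1% of the 91 probes, and none was called after it.

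The members of the miR-99 type behaved alike in this respect. miR-99a gave 90.7 and 68.7 in klotho(-/-) kidneys, against 47.8 and 53.3 in wild-type kidneys, with a normalized log2 difference of -0.02 ± 0.09 (limma adjusted p = 0.950). miR-99b gave 28.8 and 23.2 in klotho(-/-) kidneys, against 16.4 and 18.7 in wild-type kidneys, with a difference of 0.07 ± 0.06 (limma adjusted p = 0.762). The member nearest to the threshold was miR-125b in spleen (log2 difference 0.32 ± 0.14, limma adjusted p = 0.110). By tissue these 4 relatives differed from miR-10b. Their kidney minus other tissue values were 0.22 for miR-125a, 0.18 for miR-99b, 0.16 for miR-99a and -0.02 for miR-125b, and their highest signals before scaling were found in lung. After normalization over the 20 arrays the mean log2 value of miR-99a was 7.49 in heart and 6.81 in lung, and that of miR-125b was 8.15 in heart and 7.94 in lung.

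**Figure D4:**
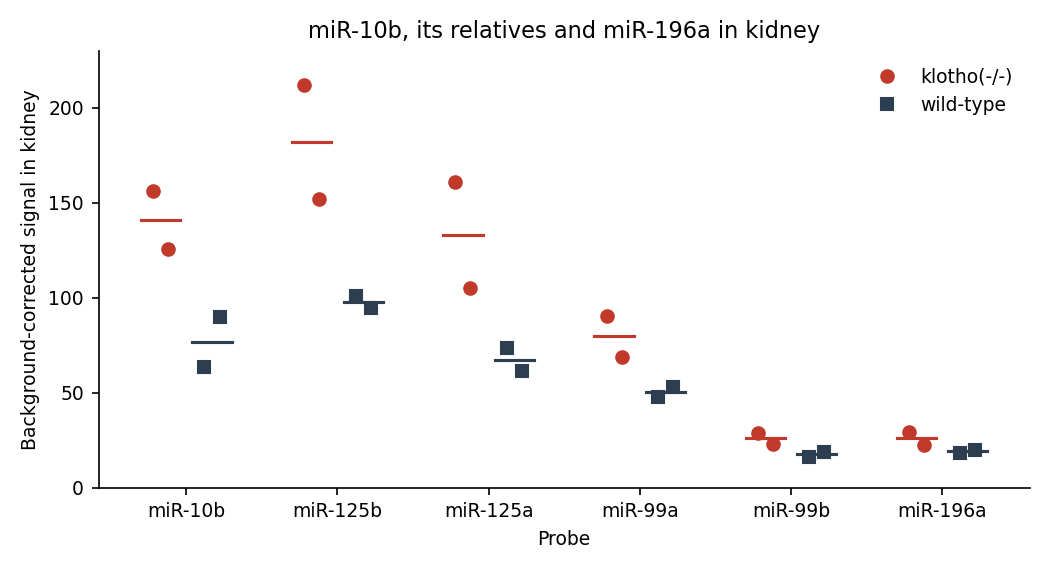
The background-corrected signal in kidney is plotted for miR-10b, 4 relatives and miR-196a, with single arrays as points (circles, klotho(-/-); squares, wild-type) and means of 2 arrays as bars. Signals of different probes cannot be set against each other, and for each of the 6 probes both klotho(-/-) arrays lie above both wild-type arrays, as for 79.1% of the probes in kidney.

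The probes whose profile was most like that of miR-10b were picked by Pearson correlation over the 10 group means of log2 values, normalized over the 20 arrays, among 128 other probes. They were miR-196a (r = 0.99), miR-187 (0.92), miR-34a (0.90), miR-200a (0.83) and miR-200b (0.81). These 10 means come from the same 20 arrays and 4 mice, and the 2 kidney groups carry most of the likeness. A high r with miR-10b, which was chosen for its kidney level, thus mainly marks a probe that is also high in kidney. Outside kidney miR-196a was near the background on all 16 arrays (0.78 to 3.93), as was miR-10b in heart, spleen and liver, so that no likeness can be read from the groups outside kidney. On the log2 scale normalized over the 20 arrays, miR-34a, a target of p53, had a mean of 6.92 in kidney. Its values in lung (6.39), liver (6.29) and heart (6.26) were close to each other. miR-200a had a mean of 7.98 in kidney and 7.15 in lung, and at most 6.06 in the remaining tissues.

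**Figure D5:**
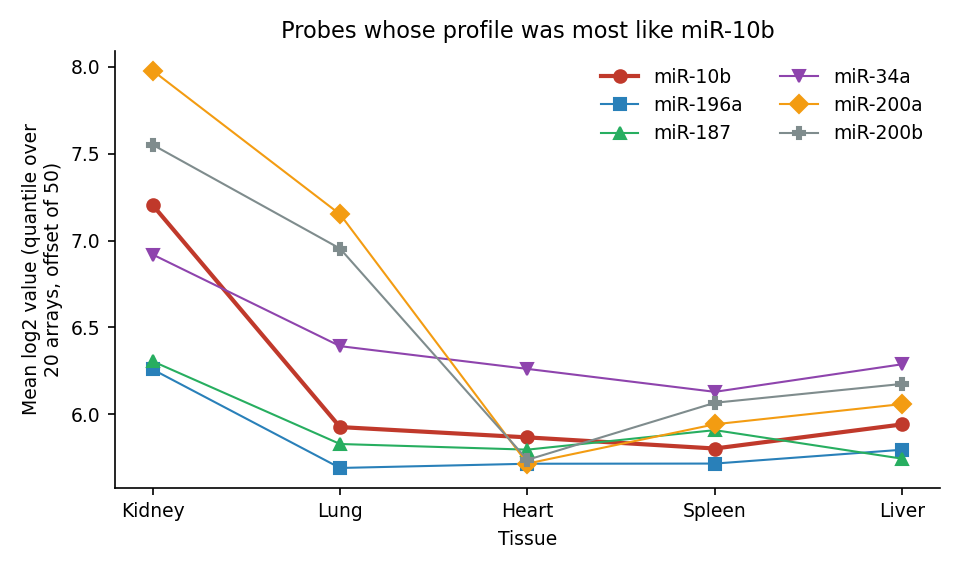
Mean log2 values over both genotypes (quantile normalization over 20 arrays, offset of 50) are plotted by tissue for miR-10b and the 5 probes most like it. All 6 are highest in kidney, and miR-200a and miR-200b are in addition higher in lung than in the remaining tissues.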

How the data were processed

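The authors hybridized dye-labelled small RNA to a DNA chip with 200 probes and deposited 2 tables of fluorescence intensity, of which the one without background subtraction was used here. The other has a constant subtracted from the brighter probes of each array, which its dim probes do not follow. On the first klotho(-/-) lung array the constant was 18.8 and the lowest intensity 18.6, yet the lowest subtracted value was 2. Per the labels, a group had 2 arrays. The background was corrected with normexp (limma 3.58.1, R 4.3.3). Quantile normalization was done among the 4 arrays of each tissue, and log2 was taken after adding an offset of 50. Probes with a mean signal of 10 or more in a tissue were tested in it. A linear model of the 10 groups (limma, eBayes with trend, 10 residual degrees of freedom) was fitted over 20 arrays, with Benjamini-Hochberg adjustment for each contrast separately. The mean over tissues and the F test used all 200 probes, because miR-10b was tested in 2 of the 5 tissues. The procedure was tested on simulated data. The number of arrays limits the precision, with 2 mice per genotype. In the main model the SE of a probe is pooled over the 5 tissues, and eBayes moves it towards that of other probes. For miR-10b the pool includes the 3 tissues in which it was too dim for a test. The main model has no term for the mouse, so arrays from the same mouse count as unrelated. Its p-values thus do not measure only the spread between mice within a tissue.

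Named were miR-10b, the measured members of its family and of the Hox list, the 5 probes most like it, those with the largest kidney difference, and list members as examples. The members and lists were chosen with earlier results of these data known. Alternatives were other scalings, offsets and filters, a replicate block, a mouse block, single-tissue fits, the methods' t-test and leaving out each array. The replicate number marks the duplicate experiment in which the genotypes were set side by side. The deviations of same-numbered arrays from their group means correlated at 0.107 to 0.548 in the 5 tissues. In the replicate block the number was therefore taken to pair the arrays of the 2 genotypes, whereas the main model leaves this pairing out. Sequences were taken from RefSeq.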

Additional observations from a re-analysis of the deposited data

How the results depend on the processing

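The kidney difference of miR-10b stayed at or above 0 under every alternative run. It was called under 1 of 15, the one without scaling (0.59, limma adjusted p = 0.0318), and under none with scaled values. Leaving out each array in turn gave 0 to 0.18 in kidney, 0.05 to 0.20 in lung, -0.04 to 0.03 in liver, -0.10 to -0.05 in heart, -0.0791 to 0.0923 in spleen, 0.01 to 0.05 for the mean over tissues and -0.0151 to 0.17 for kidney minus the other tissues. The last value turned to -0.0151 without wild-type kidney 1. Each of these fits leaves 1 array in a group, and in liver, heart and spleen miR-10b was not tested. The F test gave an adjusted p of 0.461 to 0.924.

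The untested heart difference was 0.0294 with median scaling, 0.0241 without scaling, 0.0145 with scaling to the total, -0.26 with an offset of 8 and -0.47 with an offset of 1. With an offset of 1 the spleen difference was -0.0663 and the mean over tissues -0.0026. The permutation test of the mean, with the tissues of a mouse taken as independent, gave p = 0.0147 without scaling. The causes were not tested.

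The number of probes called in kidney, 7, was 12 with median scaling, 1 without scaling, 1 with normalization over all 20 arrays, 2 with an offset of 8, 2 with an offset of 1, 0 with each tissue fitted alone and 0 by the methods' t-test after Benjamini-Hochberg (10 of 91 before it). It was 0 to 8 with an array left out (0 without klotho(-/-) kidney 1, 1 without klotho(-/-) kidney 2 or wild-type kidney 1). Kidney minus the other tissues in level was 2.65 with an offset of 8, 3.40 with an offset of 1 and 0.51 with an offset of 200, and 1.27 to 1.37 with an array left out.

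The unscaled call in kidney, tried after the data were seen, held under 4 of 9 alternatives and in 6 of 20 fits with an array left out (over the 20, 0.44 to 0.74, limma adjusted p = 0.00546 to 0.424). These 6 were without klotho(-/-) kidney 2, either klotho(-/-) spleen, either wild-type lung or wild-type kidney 2. It was also called with each tissue fitted alone (0.00971), with an offset of 200 (0.00478), with a minimum mean signal of 30 (0.0399) and with the mouse as a random block (0.0330). How many of the other probes passed in these fits was not counted. The unscaled call was lost without each of the other arrays, without all spleen arrays (adjusted p = 0.0749), with offsets of 1 (0.352) and 8 (0.324), and without the filter (0.0805).

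With the number as a replicate block the normalized kidney difference was 0.09 (limma adjusted p = 0.510), with 6 probes called, and the unscaled call was lost (adjusted p = 0.0844). The block changed no other call. With the mouse as a random block the adjusted p of the normalized difference was 0.754. A minimum mean signal of 30 leaves miR-10b untested in lung. Signal over background limits liver, heart and spleen.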
